A study of Homo sapiens with 6 samples.

Results

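The fatty acid desaturases FADS1, FADS2 and FADS3 and the elongases ELOVL1, ELOVL2, ELOVL4, ELOVL5, ELOVL6 and ELOVL7 were followed across 6 RNA-seq libraries of C4-2B MDVR cells, a human prostate cancer cell line selected for growth in enzalutamide. The 9 genes were chosen by name, as enzymes that make arachidonic acid and very long acyl chains, from 58735 genes in the deposited table. Of these, 7 had a mean level of 1 FPKM or more (fragments per kilobase of exon, scaled to sequencing depth) and entered the tests with 12960 genes in all, while ELOVL2 and ELOVL4 lay below that level and are given as values. All cells were of this 1 line and were collected after 2 days. The control library received DMSO, 1 library received enzalutamide at 20 µM, 1 received PTUPB at 10 µM and 1 received PTUPB at 20 µM. The remaining pair received PTUPB at 10 µM or 20 µM plus enzalutamide, whose dose the labels do not give for the combinations and which was taken to be the same. Enzalutamide is an antiandrogen drug for prostate cancer, and PTUPB is a small molecule that inhibits both cyclooxygenase-2 and soluble epoxide hydrolase, enzymes that act on arachidonic acid and its epoxides.

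Polyunsaturated fatty acids of the diet are lengthened and desaturated in the endoplasmic reticulum by alternating enzymes. FADS2 introduces the first double bond, ELOVL5 adds a pair of carbons, and FADS1 introduces the double bond that yields arachidonic or eicosapentaenoic acid, after which ELOVL2 carries the chains on towards docosahexaenoic acid. ELOVL6 lengthens palmitate to stearate, ELOVL1, ELOVL4 and ELOVL7 build very long chains used in ceramides and other lipids, and FADS3 desaturates sphingoid bases. FADS1, FADS2 and ELOVL6 are known targets of the transcription factor SREBP-1, and ELOVL5 and ELOVL7 are known as androgen-responsive genes in prostate cancer cells.

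The libraries held from 20156523 to 29450436 fragments, as recovered from the FPKM and exon lengths. Each group is 1 library, and nothing in the labels says whether the libraries came from separate cultures. The p-values come from an additive model over the 3 PTUPB levels and the presence of enzalutamide, with 2 residual degrees of freedom, so they measure how far the libraries depart from additivity and not the spread between replicates. All 9 luminal prostate markers had mean levels of at least 1 FPKM, and their summed level lay between 885 and 1070 FPKM in 4 libraries and at 330 and 339 FPKM in the libraries with 20 µM PTUPB. Of the basal (4 genes), blood (5 genes) and endothelial (4 genes) markers none reached a mean of 1 FPKM, and their summed levels ranged from 0.00508 to 0.674, from 0.0124 to 0.351 and from 0.057 to 0.595 FPKM. Of 5 stromal markers 1, COL1A1, did so, and their sum ranged from 2.39 to 6.52 FPKM. The part of the luminal shift in the results was not tested. In bulk RNA, fewer cells of a kind and less RNA per cell cannot be told apart.

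The 3 desaturases form a cluster on chromosome 11 (GENCODE 29, GRCh38, an own match of the gene identifiers). FADS2 (ENSG00000134824) lies on the plus strand at chr11:61792980-61867354. FADS1 (ENSG00000149485) lies on the minus strand at chr11:61799625-61829318 and FADS3 (ENSG00000221968) on the minus strand at chr11:61873519-61892051. The annotated exons of FADS1 and FADS2 share 490 bases on opposite strands, which is 4.79% of the exon bases of FADS1 and 4.44% of those of FADS2. No label states whether the counting used strand, so fragments in that stretch could belong to either gene. FADS2 also shares 49 exon bases, or 0.444%, with FEN1 on the same strand, and ELOVL1 shares 68 bases, or 2.71%, with MIR6734, listed at 0 in all libraries. The elongases lie apart, all on the minus strand. ELOVL1 (ENSG00000066322) is at chr1:43363397-43368074, ELOVL6 (ENSG00000170522) at chr4:110045846-110199199 and ELOVL7 (ENSG00000164181) at chr5:60751791-60844389. Chromosome 6 carries ELOVL2 (ENSG00000197977) at chr6:10980759-11044314, ELOVL5 (ENSG00000012660) at chr6:53267398-53349179 and ELOVL4 (ENSG00000118402) at chr6:79914812-79947580.

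The start-site sequences of the 4 genes that fell with 20 µM PTUPB are shown because these genes moved together. Each runs 5′ to 3′ on its gene's strand from 250 bases before to 50 bases after a RefSeq start site (GRCh38.p14), and capitals mark matches to the searched motifs. The FADS2 window is at chr11:61816154-61816453 (plus strand), the FADS1 window at chr11:61816954-61817253 (minus), the ELOVL5 window at chr6:53348901-53349200 (minus) and the ELOVL6 window at chr4:110198566-110198865 (minus).
FADS2: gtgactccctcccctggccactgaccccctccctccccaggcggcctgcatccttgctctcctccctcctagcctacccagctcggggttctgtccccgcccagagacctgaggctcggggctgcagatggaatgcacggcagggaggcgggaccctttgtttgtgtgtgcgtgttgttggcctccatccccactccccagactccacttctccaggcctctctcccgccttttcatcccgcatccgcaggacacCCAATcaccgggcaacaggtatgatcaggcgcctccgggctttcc
FADS1: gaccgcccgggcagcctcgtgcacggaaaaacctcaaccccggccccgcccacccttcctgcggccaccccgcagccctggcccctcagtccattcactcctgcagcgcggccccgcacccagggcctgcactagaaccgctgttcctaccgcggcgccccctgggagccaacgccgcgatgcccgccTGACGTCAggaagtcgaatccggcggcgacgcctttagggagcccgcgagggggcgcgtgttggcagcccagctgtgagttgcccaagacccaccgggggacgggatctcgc
ELOVL5: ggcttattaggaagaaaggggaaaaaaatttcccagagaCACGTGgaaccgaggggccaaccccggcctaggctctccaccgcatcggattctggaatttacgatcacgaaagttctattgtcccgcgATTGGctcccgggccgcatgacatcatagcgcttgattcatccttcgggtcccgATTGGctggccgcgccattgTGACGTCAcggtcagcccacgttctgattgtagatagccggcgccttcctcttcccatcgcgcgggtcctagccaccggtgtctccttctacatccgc
ELOVL6: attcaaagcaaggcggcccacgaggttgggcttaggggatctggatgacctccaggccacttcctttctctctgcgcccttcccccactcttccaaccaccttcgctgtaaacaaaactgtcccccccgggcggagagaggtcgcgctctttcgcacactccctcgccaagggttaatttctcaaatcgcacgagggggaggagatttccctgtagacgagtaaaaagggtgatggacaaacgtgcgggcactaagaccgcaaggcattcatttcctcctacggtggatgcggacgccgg
The motifs were searched on both strands in 10 windows of the 9 genes (FADS2 has a pair of starts) and in 35116 windows. Those windows leave out the genes of a whole chromosome, and shares of all windows refer to the windows searched. The CCAAT box bound by NF-Y stood in 5 of the 10 windows, those of ELOVL1, ELOVL4, ELOVL5, FADS3 and the FADS2 window above, against 34.6% of all windows. The cyclic AMP response element TGACGTCA stood in the FADS1 and ELOVL5 windows, against 1.85% of all, and the E-box CACGTG in the ELOVL5 and ELOVL4 windows, against 7.26%. The sterol regulatory element core TCACNCCAC (1.13% of all windows), the androgen half-site AGAACA (14.8%) and the ATF4 composite core TGATGNAA (3.62%) had 0 matches in the 10 windows. The short motifs matched at separate places, and an absent match says only that these letters are not in this stretch. Gene-level FPKM do not show which start site was used.

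In the control library ELOVL5 was the most abundant of the 9 transcripts per length at 143.5 FPKM, followed by FADS2 at 109.3 and ELOVL1 at 69.03 FPKM. FADS1 at 27.36 and ELOVL7 at 25.06 FPKM came next, then ELOVL6 at 12.69, FADS3 at 4.27 and ELOVL2 at 2.67 FPKM. ELOVL4 had 2 fragments, or 0.02199 FPKM, under the level that 3 fragments would give (0.033 FPKM). The 95% counting intervals of neighbours in this order did not overlap, with FADS1 from 26.8 to 28.0 and ELOVL7 from 24.2 to 25.9 FPKM as the closest pair, but they cover counting error only and with 1 library the spread between cultures is unknown. Over the 6 libraries the mean level of ELOVL5, 95.7 FPKM, was above that of 97.6% of the tested genes, and the mean levels of ELOVL1 and FADS2 were above 96.4% and 96.2%. FADS3, at a mean of 5.7 FPKM, was above 48.2%.

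**Figure D1:**
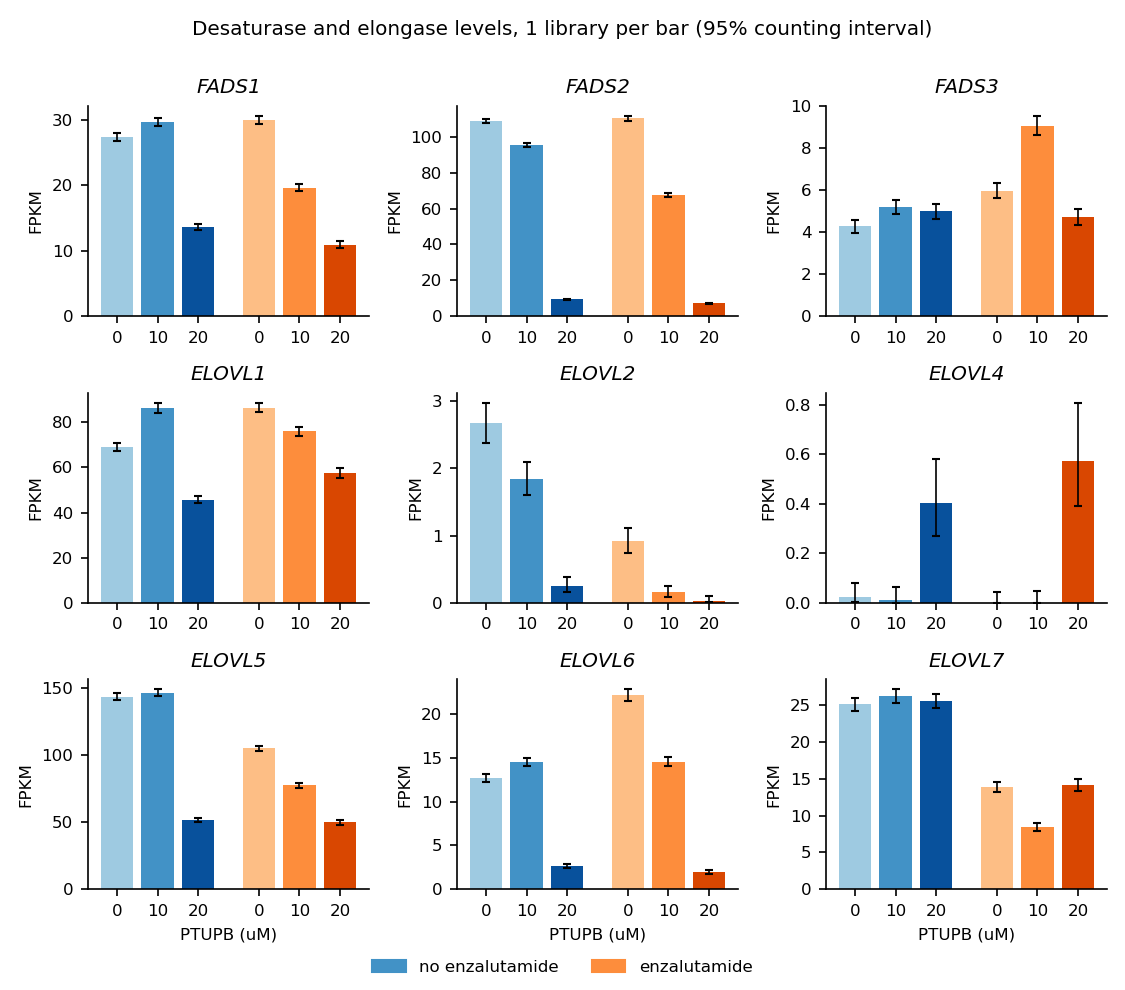
Level of each of the 9 genes in FPKM (vertical axis, separate scale per gene) by PTUPB dose in µM, without and with enzalutamide; each bar is 1 library and the error bar is its 95% counting interval. FADS2 stands between 67.71 and 110.5 FPKM in the 4 libraries without 20 µM PTUPB and at 9.29 and 7.074 FPKM in the other pair.

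With PTUPB at 20 µM, 4 of the 7 tested genes fell: FADS2, ELOVL6, ELOVL5 and FADS1, the enzymes of polyunsaturated chain synthesis and of palmitate elongation. Among all 12960 tested genes 34.2% were called in either direction at this dose and 18.2% were called lower (limma, Benjamini-Hochberg adjusted p under 0.05). The median coefficient of the 7 was -1.17 on the log2(FPKM + 1) scale, beside 0.00 for all tested genes. FADS3, ELOVL1 and ELOVL7 were not called.

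FADS2, the desaturase that starts the pathway, was at 109.3 FPKM in the control, 95.87 at 10 µM PTUPB and 9.29 at 20 µM. With enzalutamide it was at 110.5 FPKM without PTUPB, 67.71 at 10 µM and 7.074 at 20 µM. Both 20 µM libraries lay far below the other 4, with no overlap. The level at 20 µM was 11.8-fold lower than in the control (95% counting interval 11.3 to 12.3) and, with enzalutamide, 15.6-fold lower than with enzalutamide alone (14.8 to 16.5). The additive coefficient was -3.60 on the log2(FPKM + 1) scale (SE 0.21, limma adjusted p = 0.0021), and the contrast of 20 µM with 10 µM was -3.16 (SE 0.21, adjusted p = 0.0025).

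FADS1, the desaturase of the arachidonic acid step, was at 27.36, 29.59 and 13.66 FPKM at 0, 10 and 20 µM PTUPB, and at 30.0, 19.59 and 10.91 FPKM with enzalutamide. The 20 µM libraries were the lowest pair, and the combination at 10 µM stood between them and the other 3. FADS1 was 2.0-fold lower at 20 µM than in the control (1.93 to 2.09) and 2.75-fold lower in the combination than with enzalutamide alone, ratios smaller than those of FADS2. Its coefficient was -1.17 (SE 0.22, limma adjusted p = 0.015). The call was lost without the control library (-1.45, adjusted p = 0.054) and without the enzalutamide library (-0.88, adjusted p = 0.164).

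FADS3, the sphingoid base desaturase next to them, was at 4.27, 5.191 and 4.992 FPKM at 0, 10 and 20 µM PTUPB and at 5.961, 9.077 and 4.711 FPKM with enzalutamide. The highest library was the combination at 10 µM, and the 20 µM libraries lay within the range of the other 4. Its 20 µM coefficient was -0.05 (SE 0.23, limma adjusted p = 0.882), and without the combination library at 20 µM it was 0.26 (adjusted p = 0.320). The contrast of 20 µM with 10 µM was -0.43 (adjusted p = 0.185), and it was called without the library with 20 µM PTUPB alone (-0.74, adjusted p = 0.036).

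ELOVL6, the elongase from palmitate to stearate, was at 12.69, 14.52 and 2.68 FPKM at 0, 10 and 20 µM PTUPB, and at 22.17, 14.53 and 1.935 FPKM with enzalutamide. The enzalutamide library was the highest and the 20 µM pair the lowest. At 20 µM the level was 4.74-fold lower than in the control (4.31 to 5.26), and in the combination 11.5-fold lower than with enzalutamide alone (10.1 to 13.1). The coefficient was -2.44 (SE 0.28, limma adjusted p = 0.0047), and that of 20 µM against 10 µM was -2.24 (SE 0.28, adjusted p = 0.0064).

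ELOVL5, which lengthens the products of FADS2, was at 143.5, 146.5 and 51.44 FPKM at 0, 10 and 20 µM PTUPB and at 105.3, 77.49 and 49.83 FPKM with enzalutamide. The libraries with 20 µM PTUPB nearly coincided and were below the other 4. The fold differences were 2.79 (2.7 to 2.88) against the control and 2.11 against enzalutamide alone. The coefficient was -1.26 (SE 0.26, limma adjusted p = 0.018), and the call was lost without the control library (-1.28, adjusted p = 0.109) and without the enzalutamide library (-1.25, adjusted p = 0.149).

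ELOVL1, an elongase of saturated very long chains, was at 69.03, 86.43 and 45.74 FPKM at 0, 10 and 20 µM PTUPB and at 86.59, 75.97 and 57.42 FPKM with enzalutamide. The 20 µM pair was again the lowest, at 1.51-fold under its match both without and with enzalutamide. The coefficient of -0.58 (SE 0.22) had an unadjusted p of 0.041 and a limma adjusted p of 0.093. It was called with limma-voom on recovered fragments (-0.60, adjusted p = 0.046) and after scaling to total fragments (-0.65, adjusted p = 0.036), an alternative chosen after seeing the data.

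ELOVL7, a further elongase of saturated chains, was at 25.06, 26.19 and 25.57 FPKM at 0, 10 and 20 µM PTUPB without enzalutamide, a range of little more than 1 FPKM. With enzalutamide it was at 13.86, 8.402 and 14.07 FPKM. The enzalutamide libraries lay below all 3 without it, and the 20 µM libraries resembled the 0 µM libraries. Its 20 µM coefficient was 0.02 (SE 0.24, limma adjusted p = 0.948). The sign turned with total-fragment scaling (-0.04), without the control library (-0.16) and without the combination at 20 µM (-0.15).

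**Figure D2:**
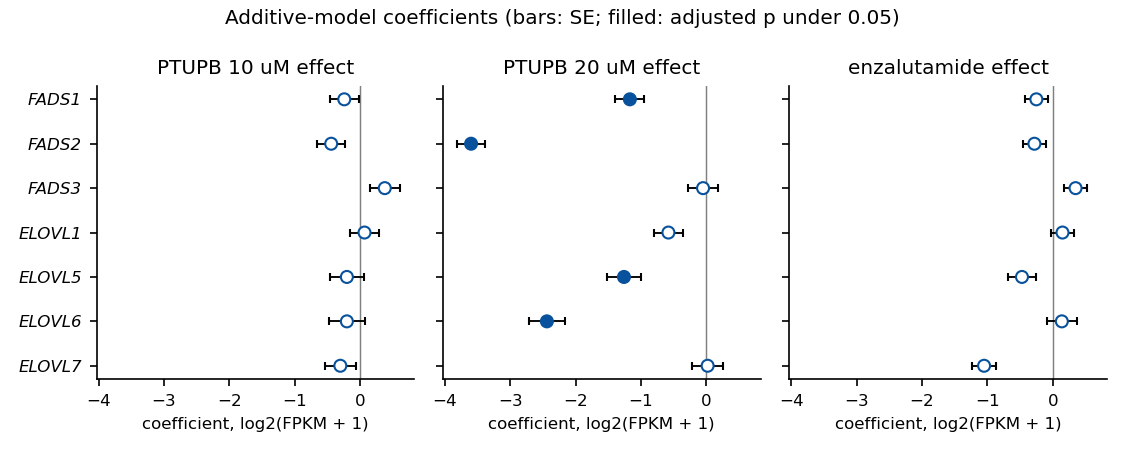
Additive-model coefficients of the 7 tested genes on the log2(FPKM + 1) scale (horizontal axis) for the PTUPB and enzalutamide effects; bars are standard errors and filled points have an adjusted p under 0.05. FADS2 at -3.60 and ELOVL6 at -2.44 lie furthest from 0 at 20 µM PTUPB, and no point is filled for 10 µM PTUPB or for enzalutamide.

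The contrast of 20 µM with 10 µM PTUPB called the same 4 genes lower, beside 33.4% of all tested genes called in either direction and 16.9% called lower. FADS1 was at -0.93 (SE 0.22, limma adjusted p = 0.027) and ELOVL5 at -1.06 (SE 0.26, adjusted p = 0.030). Both calls were sensitive to single libraries. That of FADS1 was lost without the 10 µM library (adjusted p = 0.218), without the 10 µM combination (0.079) or without the 20 µM combination (0.073), and that of ELOVL5 without the control (0.067), enzalutamide (0.068), 10 µM (0.208), 20 µM (0.074) or 10 µM combination library (0.057). FADS2 and ELOVL6 were called with each of the 6 libraries left out in turn. With 10 µM PTUPB 0% of all tested genes were called by limma, and so were 0 of the 7; at an unadjusted p under 0.05 there were 480 genes, none of them among the 7, and limma-voom called 0. The coefficients at 10 µM ran from -0.44 for FADS2 (SE 0.21, limma adjusted p = 0.977) to 0.38 for FADS3.

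The pair of low-level elongases lay on opposite sides of their matches at 20 µM. ELOVL2, the elongase of the longest polyunsaturated chains, was at 2.67, 1.837 and 0.2542 FPKM (319, 217 and 24 fragments) at 0, 10 and 20 µM PTUPB and at 0.9123, 0.1515 and 0.02727 FPKM (103, 16 and 2 fragments) with enzalutamide. Each enzalutamide library was below its match, and each 20 µM library below its match at 0 µM. ELOVL2 was 10.5-fold lower at 20 µM than in the control (6.92 to 16.6). Against enzalutamide alone, the combination was 33.4-fold lower, with an interval of 9.04 to 280 that rests on 2 fragments. ELOVL4, the elongase of the extremely long chains of retina, brain and skin, had 2, 1 and 29 fragments at 0, 10 and 20 µM PTUPB, or 0.02199, 0.01112 and 0.4035 FPKM. With enzalutamide it had 0, 0 and 32 fragments, the last being 0.5734 FPKM. All but the 20 µM libraries were under the level of 3 fragments. The combination at 20 µM was 16.4-fold above that floor in the enzalutamide library, which had 0 fragments. The 95% counting interval of the ratio of the combination to enzalutamide alone starts at 12.6. In a fit with no filter on level, ELOVL4 had a coefficient of 0.56 at 20 µM (SE 0.09, limma adjusted p = 0.059) and ELOVL2 of -1.22 (SE 0.34, adjusted p = 0.134), so neither passed the threshold.

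Differences between single matched libraries were also counted at 1 or more on the log2(FPKM + 1) scale, with no replicate check. The 9 members counted include ELOVL2 and ELOVL4, which the shares of all tested genes leave out. Between 20 µM PTUPB and the control FADS2, ELOVL2, ELOVL5 and ELOVL6 lay that far below, 4 of 9. Among all tested genes 22.1% passed in either direction, with 1640 genes lower. Between the 20 µM combination and enzalutamide alone the members that far below were FADS1, FADS2, ELOVL5 and ELOVL6. The background there was 29.3% in either direction, with 2047 genes lower. At 10 µM PTUPB 0 of 9 passed, both against the control (background 2.39%) and with enzalutamide present (3.81%). In the latter pair 7 of 9 were below 0, with a median of -0.58 beside -0.05 for all tested genes: FADS2 was 1.63-fold, FADS1 1.53-fold, ELOVL6 1.53-fold and ELOVL5 1.36-fold lower than with enzalutamide alone, while FADS3 was 1.52-fold higher. Without enzalutamide 3 of 9 were below 0 at 10 µM, with a median of 0.06 beside -0.03 for all tested genes. That count depended on the scaling, with 8 of 9 below 0 and a median of -0.20 after TPM, where all tested genes had -0.33, and 5 of 9 with total fragments, whereas with enzalutamide it was 7 of 9 under each scaling. The PTUPB pairs at 1 enzalutamide state share their 0 µM library.

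**Figure D3:**
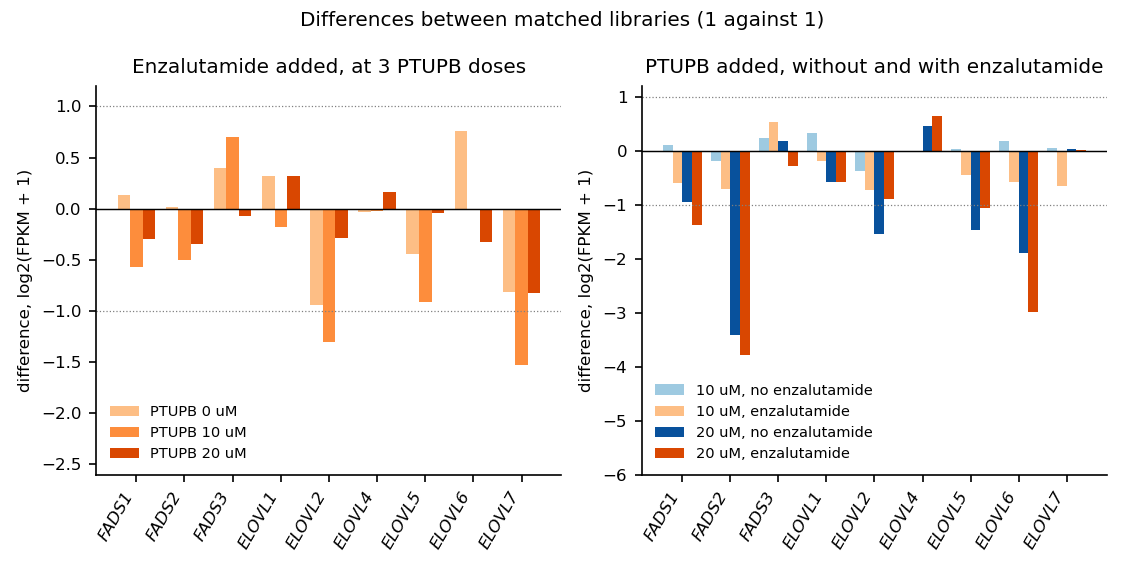
Differences on the log2(FPKM + 1) scale (vertical axis) between matched libraries, 1 against 1, for the 9 genes: enzalutamide added at each PTUPB dose (left) and PTUPB added without and with enzalutamide (right). ELOVL7, ELOVL2 and ELOVL5 lie below 0 in all 3 enzalutamide pairs, and FADS2 has the lowest bars at 20 µM PTUPB.

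Enzalutamide left the members without a call: 0 of 7 and 0% of all tested genes passed (limma), with 626 genes at an unadjusted p under 0.05 and 1 gene called by limma-voom. ELOVL7 had the lowest coefficient of the 7, at -1.05 (SE 0.19, unadjusted p = 0.0020, adjusted p = 0.919). It was 1.81-fold lower with enzalutamide at 0 µM PTUPB (1.71 to 1.91), 3.12-fold lower at 10 µM (2.91 to 3.35) and 1.82-fold lower at 20 µM (1.7 to 1.95), so it was lower in 3 of 3 pairs. After rescaling to TPM (each library scaled to 1 common sum), which moved the median coefficient of all genes to -0.23, ELOVL7 was called at -1.36 (SE 0.20, adjusted p = 0.036), as 1 of 9 genes in all. ELOVL2 was lower in 3 of 3 pairs as well, by 2.93-fold (2.33 to 3.69), 12.1-fold (7.3 to 21.6) and 9.32-fold (2.32 to 81.5, from 2 fragments).

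ELOVL5 was on the same side in 3 of 3 pairs, though the counting interval of the 20 µM pair included 1 (0.987 to 1.08). At a coefficient of -0.47 (SE 0.21, limma adjusted p = 0.919), it was 1.36-fold, 1.89-fold and 1.03-fold lower with enzalutamide at 0, 10 and 20 µM PTUPB. ELOVL6, FADS1 and ELOVL1 differed in direction between pairs, with counting intervals that left out 1 on both sides. ELOVL6 was 1.75-fold higher without PTUPB (1.66 to 1.83), at a ratio of 1.0 at 10 µM and 1.39-fold lower at 20 µM (1.19 to 1.62). Its coefficient of 0.14 turned to -0.12 after TPM scaling, and that of ELOVL1 from 0.15 to -0.11. FADS2 was at a ratio of 1.01 without PTUPB, with an interval that included 1 (0.996 to 1.03), and then 1.42-fold and 1.31-fold lower. FADS1 was 1.1-fold higher without PTUPB (1.07 to 1.13), and then 1.51-fold and 1.25-fold lower. ELOVL1 was 1.25-fold higher, 1.14-fold lower and 1.26-fold higher at 0, 10 and 20 µM. After TPM scaling the log2 differences without PTUPB were -0.29 for FADS1 and -0.1 for ELOVL1, so their direction there depended on the scaling. At a log2 difference of 1, 0 of 9 passed without PTUPB (background 2.69%), ELOVL2 and ELOVL7 were lower at 10 µM (3.42%) and 0 of 9 passed at 20 µM (6.74%).

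The interaction of enzalutamide with the linear PTUPB dose, fitted with 1 residual degree of freedom, gave 0 calls among the 7 and 0% among all tested genes by limma, with 1219 genes at an unadjusted p under 0.05 and 73 called by limma-voom. ELOVL6 had an interaction coefficient of -0.54 per 10 µM (SE 0.17, unadjusted p = 0.019, adjusted p = 0.476). A difference between the PTUPB responses without and with enzalutamide was therefore not called for any of the 7, which does not show that the responses were alike.

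The 9 levels summed to 394 FPKM in the control, 406 at 10 µM PTUPB and 154 at 20 µM, and to 375, 273 and 147 FPKM with enzalutamide. The 3 desaturases summed to 141, 131 and 27.9 FPKM without enzalutamide and to 146, 96.4 and 22.7 FPKM with it. FADS2 made up 27.7%, 23.6% and 6.03% of the sum at 0, 10 and 20 µM, and 29.4%, 24.8% and 4.83% with enzalutamide. ELOVL1 took a larger share as FADS2 took a smaller one, at 17.5%, 21.3% and 29.7%, and at 23.1%, 27.8% and 39.2% with enzalutamide. The ratio of FADS2 to FADS1, the pair of desaturases of the polyunsaturated pathway, was 3.99, 3.24 and 0.68 at 0, 10 and 20 µM, and 3.68, 3.46 and 0.649 with enzalutamide. FADS1 thus exceeded FADS2 per length in both 20 µM libraries and in no other. The ratio of ELOVL5 to FADS2 was 1.31, 1.53 and 5.54, and 0.953, 1.14 and 7.04 with enzalutamide.

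The order of levels changed accordingly. In the control, enzalutamide and 10 µM libraries no more than 1 member was above FADS2, in the 10 µM combination ELOVL5 and ELOVL1 were, and in both 20 µM libraries ELOVL5, ELOVL1, ELOVL7 and FADS1 were. ELOVL5 led in 4 libraries, FADS2 in the enzalutamide library and ELOVL1 in the 20 µM combination, at 57.42 beside 49.83 FPKM for ELOVL5.

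**Figure D4:**
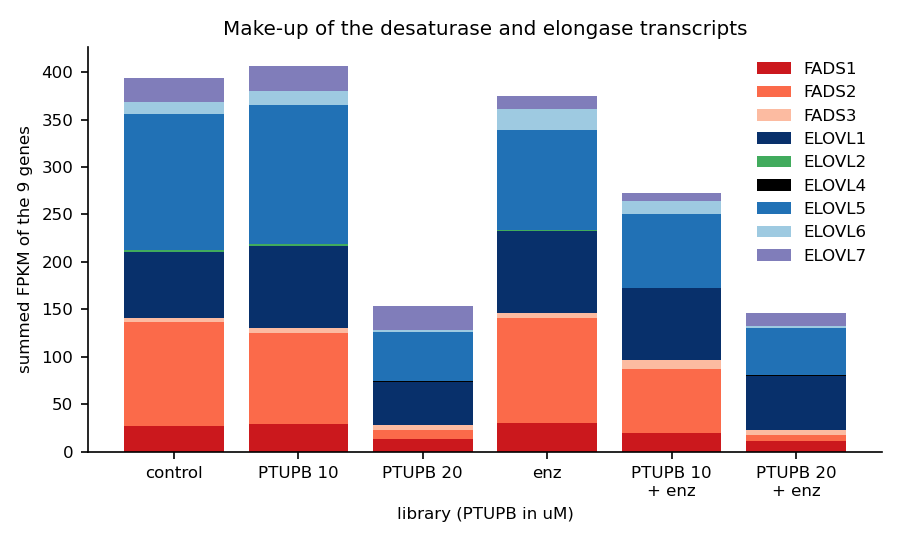
Stacked levels of the 9 genes in FPKM (vertical axis), 1 bar per library. The bars reach 154 and 147 FPKM with 20 µM PTUPB and from 273 to 406 FPKM in the other libraries, and the FADS2 block shrinks to 6.03% and 4.83% of the bar.

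The levels of the 7 tested genes were compared over the 6 libraries by Pearson's r of log2(FPKM + 1), as a description; the libraries fall into those with and without 20 µM PTUPB, which sets much of such an r. FADS2 followed ELOVL6 (0.98), FADS1 (0.96) and ELOVL5 (0.92). ELOVL7 stood apart, at -0.02 with FADS2 and 0.32 with ELOVL5, and was at -0.81 with FADS3. Among 2251 genes with a mean of at least 5 FPKM and an SD of at least 0.5, the most alike were NETO1 (0.999) and GJB1 (0.998) for FADS2, LCLAT1 and NDC1 (both 0.995) for FADS1, and GALNT11 and TLCD1 (both 0.999) for ELOVL6. For ELOVL5 they were KLK2 and GCNT1 (both 0.995), where KLK2 is a kallikrein with close paralogs whose fragments could be shared. PLP2 (0.993) was nearest to ELOVL1. FADS3 had weaker matches in SYTL2 (0.923) and FURIN (0.917), as did ELOVL7 in HERC3 (0.853) and MIR553 (0.794).

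Other genes of the same chemistry were read from lists chosen with earlier results of these data known, so the lists' direction is no independent evidence. In 11 of the 12 lists more genes were called lower than higher at 20 µM PTUPB. Over the 84 tested genes that are no members, 37 (44.0%) were called lower and 5 higher, beside 18.2% lower and 34.2% in either direction among all tested genes, and the short lists give shares too coarse to set against these. The median coefficient was -0.50, beside 0.00 for all tested genes. In each list 0 genes were called for 10 µM PTUPB, for enzalutamide or for the interaction. A different set, the 37 genes called in either direction that were picked to be named, NR1H2 included and no members among them, was refitted with other settings. All 37 kept their sign under the 13 alternatives, but 33 lost the call without the enzalutamide library, 21 without the control and 29 with no level filter. DEGS1, FASN and SREBF1 were among those called under all 13. Among the remaining family members both tested genes were called lower: ELOVL3 at -2.18 (SE 0.28, limma adjusted p = 0.0057), an elongase of skin and brown fat known to act on saturated chains, and FADS6 at -0.64 (SE 0.18, adjusted p = 0.043). The FADS6 call held under only 4 of the 13 alternatives, and that of ELOVL3 under 12. ELOVL3 was at 5.08 FPKM in the control and 0.834 FPKM at 20 µM, while FADS2B was listed at 0 throughout. An elongase works with a ketoreductase, a dehydratase and an enoyl reductase. Of 4 tested partner genes 1 fell, the dehydratase HACD3 (-1.19, adjusted p = 0.017). The enoyl reductase TECR was at -0.40 (adjusted p = 0.173), the ketoreductase HSD17B12 at -0.26 (adjusted p = 0.435) and HACD2 at 0.01 (adjusted p = 0.990).

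All 3 tested stearoyl and sphingolipid desaturases fell. DEGS1, which makes the double bond of ceramide, was at 239 FPKM in the control and 41.5 FPKM at 20 µM (-2.76, SE 0.27, limma adjusted p = 0.0035). SCD, which makes oleate from stearate, was at 293 and 123 FPKM (-1.57, SE 0.25, adjusted p = 0.0093), and SCD5 had a coefficient of -1.96 (adjusted p = 0.0088). Desaturases take electrons from cytochrome b5. Of 4 tested carriers CYB5A (-1.12, adjusted p = 0.010) and its reductase CYB5R3 (-0.90, adjusted p = 0.022) fell, and CYB5R1 (-0.27, adjusted p = 0.315) and CYB5B (-0.15, adjusted p = 0.570) were not called.

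The list of de novo fatty acid synthesis, which supplies palmitate to ELOVL6, holds ELOVL6 itself and SCD. Of its 8 other tested genes 3 fell and 1 rose. FASN, the fatty acid synthase, was at 350 FPKM in the control, 126 at 10 µM and 33.3 at 20 µM PTUPB (-3.16 at 20 µM, SE 0.22, limma adjusted p = 0.0023). ACLY, which makes cytosolic acetyl-CoA, fell (-1.80, adjusted p = 0.0043). ME1, the malic enzyme that supplies NADPH, rose (1.87, SE 0.33, adjusted p = 0.012). Among the SREBP and LXR genes 5 of 15 fell and 1 rose, with a list median of -0.37. SREBF1, which encodes SREBP-1, was at 115, 113 and 12.6 FPKM at 0, 10 and 20 µM PTUPB and at 124, 98.6 and 9.48 FPKM with enzalutamide, again with the 20 µM pair far below the rest (-3.33, SE 0.21, adjusted p = 0.0023). SREBF2, its cholesterol-directed paralog, was at -0.97 (adjusted p = 0.044), INSIG1 at -0.94 (adjusted p = 0.036) and MLXIPL at -0.92 (adjusted p = 0.024). NR1H2, an LXR gene, was the 1 that rose (0.74, adjusted p = 0.029), and it is named with its value seen.

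Genes that activate, shorten and use acyl chains were called lower in part. Of 9 tested acyl-CoA synthetases and transporters 5 fell, with ACSL1 at -1.94 (limma adjusted p = 0.0050), SLC27A2 at -1.39 (0.011), ACSL3 at -1.27 (0.033) and SLC27A3 at -1.27 (0.017). Of 11 peroxisomal genes, which shorten very long chains at the last step of docosahexaenoic acid synthesis, 4 fell, among them the acyl-CoA oxidases ACOX2 (-1.17, adjusted p = 0.015) and ACOX3 (-0.75, adjusted p = 0.040). AMACR was at -0.63 (adjusted p = 0.123), and was called lower by limma-voom. The acyltransferases that place acyl chains in phospholipids gave 4 falls among 9: LPCAT4 (-2.15, adjusted p = 0.0061), MBOAT2 (-1.81, 0.0094), AGPAT3 (-1.46, 0.014) and LPCAT3 (-1.11, 0.041). MBOAT2 also had the lowest enzalutamide coefficient of the listed genes, at -0.96 (adjusted p = 0.919). Ceramide synthases, which use acyl chains of differing lengths, gave 3 falls among 5. CERS4 was at -1.43 (adjusted p = 0.0090), CERS1 at -1.11 (0.019) and CERS2 at -0.83 (0.021), beside CERS6 at -0.41 (0.152).

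Of 9 tested genes whose enzymes use arachidonic acid or its products 5 fell. PTGES, a prostaglandin E synthase, was at -1.74 (limma adjusted p = 0.0089) and PTGS1, cyclooxygenase-1, at -1.42 (adjusted p = 0.039). Both had low levels. PTGES was at 1.62 FPKM in the control and 0 at 20 µM, and at 3.85 and 0.144 FPKM with enzalutamide. PTGS1 was at 0.953 and 0.146 FPKM, and at 3.22 and 0 FPKM with enzalutamide. The PTGES call held under 10 of the 13 alternatives and that of PTGS1 under 8. EPHX2, which encodes the soluble epoxide hydrolase inhibited by PTUPB, was at 8.97 FPKM in the control and 3.26 FPKM at 20 µM (-1.12, adjusted p = 0.0076). CYP2J2, an epoxygenase, was at -1.11 (adjusted p = 0.017). PTGS2, the gene of cyclooxygenase-2, was listed at 0 in 5 of the 6 libraries.

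Among the neighbours of the FADS cluster on chromosome 11, 3 of 5 tested genes rose at 20 µM PTUPB and 0 were called lower. FTH1, the ferritin heavy chain, was at 3.45 (SE 0.41, limma adjusted p = 0.0050), a gene with many pseudogenes whose fragments may be shared, and it also had the highest enzalutamide coefficient of the listed genes, 1.08 (adjusted p = 0.919). BEST1, a chloride channel that lies beside it, was at 1.82 (adjusted p = 0.0083), and RAB3IL1 at 1.58 (adjusted p = 0.0080). FEN1, the flap endonuclease that overlaps FADS2, was at -1.11 (SE 0.37, adjusted p = 0.066), and passed the threshold with TPM, total-fragment scaling, limma-voom and in 3 of the 6 fits that left out a library. TMEM258 was at 0.61 (adjusted p = 0.057). MYRF, not tested for its level, was at 1.36 FPKM in the control and 0.305 FPKM at 20 µM, and at 1.5 and 0.265 FPKM with enzalutamide. TMEM258 and MYRF are named with their values seen.

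**Figure D5:**
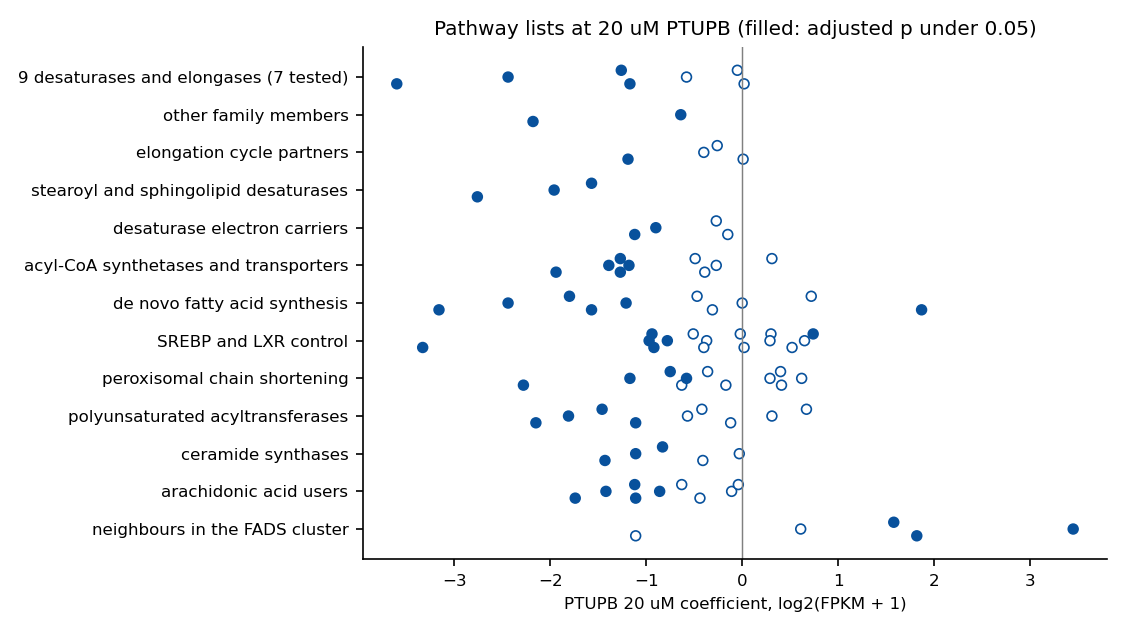
Coefficients at 20 µM PTUPB on the log2(FPKM + 1) scale (horizontal axis), 1 point per tested gene and 1 line per list of related genes; filled points have an adjusted p under 0.05. FADS2 at -3.60, SREBF1 at -3.33 and FASN at -3.16 lie at the left, and FTH1 at 3.45 at the right.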

How the data were processed

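RNA was measured in 6 libraries of C4-2B MDVR cells, 1 per group. The values are FPKM as the authors deposited them, 1 per gene and library; HISAT and Cufflinks are named, without versions, per the submitters' processing notes. Genome build: not given in the sources used here. Fragments were recovered by multiplying FPKM by GENCODE 29 union exon length and came out whole, within 0.05, for 100% of values. Intervals of levels are exact Poisson at 95%, and those of fold differences come from exact binomial intervals at 95% on the fragment counts of both libraries. The floor is 3 fragments. All of these cover counting error only. Genes with a mean of 1 FPKM or more (12960) were tested on log2(FPKM + 1), a scale that understates changes of low genes, with limma 3.58.1 in R 4.3.3 (intensity trend, two-sided, Benjamini-Hochberg at 0.05 over all tested genes). The script was tested on simulated data. An equal enzalutamide dose in the combinations was assumed, and all additive and interaction results depend on it. Alternatives were another pseudocount (0.1), no level filter, TPM, median-of-ratios and total-fragment scaling, no trend, limma-voom on recovered fragments and leaving out each library. The members and lists were chosen with earlier results of these data known. All 9 members were named, from each list the 4 tested genes with the largest 20 µM coefficients, the pair of listed genes with the largest enzalutamide coefficients, and the 2 genes most like each tested member; a few of these are not reported here. No columns were left unmapped.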

Additional observations from a re-analysis of the deposited data

How the results depend on the processing

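FADS2 and ELOVL6 were called lower with 20 µM PTUPB under all 13 alternatives. With no level filter, where more genes are tested, the calls at 20 µM went from 4426 to 1201 genes and from 4 to 2 members (FADS1 adjusted p = 0.066, ELOVL5 adjusted p = 0.081), and for 20 against 10 µM from 4325 to 868 genes and from 4 to 1 member. Leaving out 1 library, with 1 residual degree of freedom, gave 324 to 5403 genes and 2 to 4 members at 20 µM, and 838 to 5591 genes and 2 to 4 members for 20 against 10 µM. At 20 µM the counts were 324 without the enzalutamide library and 982 without the control, each with 2 members. For 20 against 10 µM they were 838 without the 10 µM library and 1139 without the 10 µM combination, each with 2 members, and 2578 and 2581 without the control or enzalutamide library. Enzalutamide calls went from 0 to 9 genes and 1 member with TPM and to 1 gene with limma-voom, and interaction calls from 0 to 301 with TPM, 8 with total fragments and 73 with limma-voom. Under TPM the median over all tested genes shifted by -0.41 between the enzalutamide and control libraries, and the share of higher calls for 20 against 10 µM went from 49.3% to 59.2%. Members past a log2 difference of 1 went from 0 to 2 (TPM) or 1 (pseudocount 0.1, total fragments) for enzalutamide alone. They went from 0 to 1 for the 20 µM combination against 20 µM PTUPB (TPM, pseudocount 0.1, total fragments) and for the 10 µM combination against enzalutamide (TPM, pseudocount 0.1). For 20 µM PTUPB against the control they went from 4 to 6 (TPM) or 5 (pseudocount 0.1, total fragments), and for the 20 µM combination against enzalutamide from 4 to 5 (TPM) or 6 (pseudocount 0.1). Signs of tested coefficients turned only where no call had been made. With total fragments ELOVL7 at 20 µM was -0.04 and HACD2 -0.05. With TPM ELOVL1 was -0.05 at 10 µM, -0.11 for enzalutamide and 0.06 for the interaction, ELOVL6 was -0.12 for enzalutamide and ELOVL7 was 0.05 for the interaction. With pseudocount 0.1 or limma-voom the ELOVL1 interaction was 0.00, and HACD2 at 20 µM was 0.00 with median of ratios and -0.01 with limma-voom. Leaving out 1 library turned the sign within these ranges: at 20 µM ELOVL7 -0.16 to 0.21, FADS3 -0.36 to 0.26, HSD17B12 -0.63 to 0.10, HACD2 -0.51 to 0.52 and CYB5B -0.39 to 0.09; at 10 µM ELOVL1 -0.19 to 0.32, FADS1 -0.52 to 0.04, ELOVL5 -0.54 to 0.13, ELOVL6 -0.66 to 0.26 and ELOVL7 -0.66 to 0.06. For enzalutamide ELOVL6 ran from -0.16 to 0.38, and for 20 against 10 µM ELOVL7 from -0.04 to 0.68. The cause of these shifts was not tested. The interaction could not be fitted with a library left out. No paired analysis was possible because each group has 1 library and so no replicate numbers to pair by; the matched libraries share agents and doses. Depth limits ELOVL2 and ELOVL4, at 2 fragments or fewer in some libraries.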
